A study of Homo sapiens with 3 samples.

Results

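The 10 genes described here belong to families known for feedback on ERK and related kinases: the dual-specificity phosphatases DUSP1, DUSP2, DUSP4, DUSP5, DUSP6, DUSP10 and DUSP23, the Sprouty genes SPRY2 and SPRY4, and the Sprouty-related gene SPRED1. They were taken by symbol, and all 10 were found among the 59719 gene names of the expression table. All 10 passed the minimum (mean level of 1 TPM over the libraries), as did 13629 genes in total, called tested genes here. DUSP2 and DUSP23 were chosen by their higher levels under USP16 knockdown in the same table, so their direction is a description. The other 8 are the comparison. RNA-seq was performed on PC3, a cell line from a prostate cancer that grows without androgen. The series holds 1 library of cells expressing the vector control hairpin (shCON) and 1 library for each of the hairpins against the deubiquitinase USP16 (shUSP16#1 and shUSP16#2). The paper's methods describe hairpins cloned into the pLKO.1 vector and stable PC3 transformants selected in puromycin. They do not state whether the sequenced cells were such a selected population. With 1 library per condition no difference has a replicate check and no p-value is given.

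ERK is the last kinase of the cascade that carries growth factor signals from RAS through RAF and MEK. Active ERK switches on genes for its own inhibitors, a negative feedback loop. MAP kinase phosphatases of the DUSP family remove the activating phosphates from ERK, JNK or p38, each with its own preference and place in the cell, while Sprouty and Spred proteins act upstream, between receptor tyrosine kinases and RAF. The transcripts of DUSP4, DUSP5, DUSP6, SPRY2 and SPRY4 are commonly read as a measure of ERK output in epithelial tumours.

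The hairpins define the groups, so their sense strands are shown, with the 7 bases that pair with the seed of the antisense strand in capitals (bases 14 to 20 of the 21 sense bases, taking the antisense strand to start at its first listed base).
shUSP16#1: gccagaagaaatcATGTTTAt
shUSP16#2: cggtgatattccaCAAGATTt

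USP16 itself was at 19.9 TPM in shCON, against 3.50 with shUSP16#1 and 1.08 with shUSP16#2. No whole target sequence of either hairpin occurred in the longest GENCODE transcript of any of the 10 genes. The 7-base site of shUSP16#1 occurred in SPRED1 alone among them, and that of shUSP16#2 in none, whereas 29.2% and 24.9% of the 11489 tested protein-coding genes held these sites. The labelled cell line was checked by its markers. KRT8, KRT18, EPCAM, CDH1, VIM and CD44 were present in all libraries, the lowest value being 40.5 TPM for VIM with shUSP16#2, and the prostate secretory genes KLK2 and KLK3 were listed at 0. Of 9 markers of leukocytes, endothelium, fibroblasts and muscle, CD68 (31.7 to 42.2 TPM) and COL1A1 (4.19 TPM in shCON, 10.7 and 4.78 TPM under the hairpins) reached a mean of 1 TPM.

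TPM values are reads divided by gene length and scaled to a common sum in each library, so levels can be compared between genes. They keep no depth, and values therefore carry no interval. Changes are the difference in log2(TPM + 1) between a hairpin and shCON, on which the change of low genes comes out too small. Both comparisons use the same shCON library. The typical tested gene was lower with either hairpin, the medians being -0.17 (shUSP16#1) and -0.37 (shUSP16#2). In bulk RNA, fewer cells that express a gene and less RNA per cell cannot be told apart.

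DUSP4 was the most abundant of the 10 genes in all 3 libraries, with 52.7 TPM in shCON, 44.96 with shUSP16#1 and 28.2 with shUSP16#2. DUSP1 and DUSP5 held the next ranks in each library, and these 3 nuclear phosphatases together made up 74.0%, 74.5% and 76.7% of the summed level. The summed level of all 10 genes was 141 TPM in shCON, against 142 with shUSP16#1 and 101.5 with shUSP16#2, so the sum was lowest with shUSP16#2. The order of the rest differed between libraries. DUSP6 was ranked 4th in shCON at 11.8 TPM, ahead of SPRED1, SPRY2, DUSP10, SPRY4, DUSP2 and DUSP23, in that order. DUSP23 was the lowest gene in shCON and ranked 4th under shUSP16#2, just above DUSP6, and the ratio of DUSP6 to DUSP23 was 9.02, 3.41 and 0.921 in shCON, shUSP16#1 and shUSP16#2. No spread is known for these ranks, and neighbours such as DUSP1 and DUSP5 (27.0 and 24.8 TPM in shCON) changed places between libraries.

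**Figure D1:**
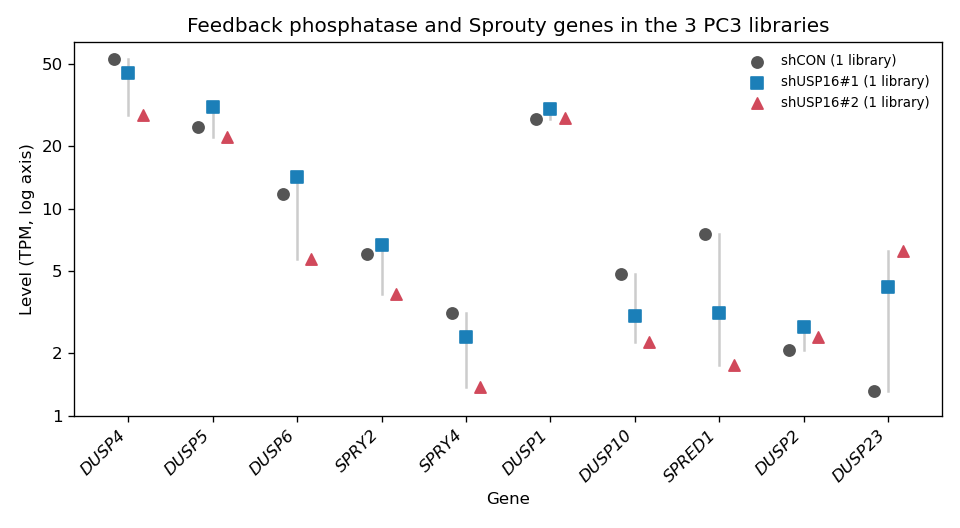
Level of each of the 10 genes (TPM, log axis) in the shCON, shUSP16#1 and shUSP16#2 libraries, 1 point per library, with a grey line over the range. DUSP4, DUSP1 and DUSP5 are the highest genes in every library, SPRED1 is highest in shCON and lowest under shUSP16#2, and DUSP23 shows the opposite order.

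DUSP6 encodes the cytoplasmic phosphatase with the strictest preference for ERK. It was at 11.8 TPM in shCON, against 14.2 with shUSP16#1 and 5.72 with shUSP16#2. The level in TPM thus differed from shCON by 20.3% and by -51.6%, changes of 0.25 and -0.93 on the log2(TPM + 1) scale. The second change lay just short of 2-fold, and with a pseudocount of 0.1 it passed 2-fold. The GC content of its transcript is 46.7%, and the median change of the 266 tested genes of like GC content was -0.25 and -0.50. The RefSeq promoter window of DUSP6 (250 bases before to 50 after the start, chr12:89352452-89352751, minus strand, GRCh38.p14) is shown because this gene gave the widest difference between the hairpin libraries. No E box (CACGTG), cyclic AMP response element (TGACGTCA), AP-1 site (TGANTCA), ETS site (CCGGAA) or CArG box was found in it on either strand, and capitals, which mark these motifs, are therefore absent. A CCAAT box, not capitalised, was found on the reverse strand with its first base at position -46. CCAAT was found in 3 of the 8 genes with a window (DUSP6, DUSP10 and DUSP23) and in 34.6% of all windows. The count is per gene, over 1 or more windows, and the share is per window.
DUSP6: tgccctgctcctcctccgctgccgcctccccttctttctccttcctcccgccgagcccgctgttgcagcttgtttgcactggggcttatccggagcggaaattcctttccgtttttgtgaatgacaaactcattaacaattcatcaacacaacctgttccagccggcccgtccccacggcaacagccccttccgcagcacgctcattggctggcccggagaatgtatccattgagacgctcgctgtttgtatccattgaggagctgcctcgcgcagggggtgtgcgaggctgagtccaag

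DUSP4 and DUSP5 encode nuclear phosphatases, DUSP5 being selective for ERK. DUSP4 was lower in both hairpin libraries, at 44.96 and 28.2 TPM against 52.7 TPM, with changes of -0.22 and -0.88. The first lay close to the tested genes' median, and the second was -0.51 relative to it. DUSP5 was at 24.8 TPM in shCON, against 31.1 with shUSP16#1 and 22.2 with shUSP16#2, changes of 0.31 and -0.15. Its TPM differed from shCON by -10.5% under shUSP16#2, but centred on the tested genes' median the change was 0.21, so its sign depends on centring. DUSP4 exceeded DUSP5 by ratios of 2.13 (shCON), 1.45 (shUSP16#1) and 1.27 (shUSP16#2).

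SPRY2 and SPRY4 encode membrane-associated inhibitors of receptor tyrosine kinase signalling. SPRY2 was at 6.05 TPM in shCON, against 6.70 with shUSP16#1 and 3.88 with shUSP16#2, changes of 0.13 and -0.53. SPRY4 was at 3.14, 2.40 and 1.38 TPM in the same order, changes of -0.28 and -0.80. For both genes the shUSP16#2 library was the lowest. Over DUSP4, DUSP5, DUSP6, SPRY2 and SPRY4 the median change was 0.13 under shUSP16#1, where 3 of 5 genes were above shCON, and -0.80 under shUSP16#2, where all 5 were below it. Of all tested genes, 37.7% were above shCON under shUSP16#1 and 70.2% were below it under shUSP16#2. With the GC trend removed (each change set against tested genes of like GC content, with the overall median added back), the medians of these 5 genes were 0.03 and -0.80.

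DUSP1, the stress- and mitogen-induced nuclear phosphatase that acts on p38 and JNK as well as ERK, differed least between the libraries. It was at 27.0 TPM in shCON, against 30.1 with shUSP16#1 and 27.5 with shUSP16#2, changes of 0.15 and 0.03. Centred on the tested genes' median these were 0.32 and 0.40, and with the GC trend removed and the overall median kept they were -0.02 and -0.29, so no direction is stated for this gene. Its promoter window (chr5:172771146-172771445, minus strand, GRCh38.p14) is shown as 1 of the 3 that hold an E box, with the response element TGACGTCA and the E box CACGTG in capitals. Their first bases are at positions -125 and -108 from the start.
DUSP1: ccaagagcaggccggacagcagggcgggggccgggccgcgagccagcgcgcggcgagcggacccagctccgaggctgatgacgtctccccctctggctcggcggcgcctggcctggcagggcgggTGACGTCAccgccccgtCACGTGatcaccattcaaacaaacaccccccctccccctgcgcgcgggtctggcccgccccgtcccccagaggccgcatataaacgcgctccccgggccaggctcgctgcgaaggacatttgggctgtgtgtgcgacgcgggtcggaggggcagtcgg

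DUSP10 encodes a phosphatase that prefers JNK and p38. It was at 4.84 TPM in shCON, against 3.04 with shUSP16#1 and 2.27 with shUSP16#2. The changes were -0.53 and -0.84, and those of the tested genes of like GC content had medians of -0.36 and -0.62.

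SPRED1 encodes a Spred protein, which binds neurofibromin and restrains RAS and RAF. It was at 7.56 TPM in shCON, against 3.14 with shUSP16#1 and 1.75 with shUSP16#2, differences of -58.5% and -76.9% in TPM. The changes of -1.05 and -1.64 lay at percentiles 4.90 and 3.41 of all tested genes. SPRED1 was the only gene of the 10 at least 2-fold lower in either library. At this threshold 5.76% of tested genes were lower under shUSP16#1 and 19.5% under shUSP16#2, so 1 of 10 is no result about the group. With a pseudocount of 0.1, 4 of the 10 genes were at least 2-fold lower under shUSP16#2 (SPRED1, DUSP6, DUSP10 and SPRY4), against 26.3% of tested genes, so the side of the background on which the count lies depends on the pseudocount. SPRED1 has the longest gene model of the group, 7270 bases, and the lowest GC content, 38.9%. The tested genes of like GC content had median changes of -0.63 and -1.05, and with the GC trend removed SPRED1 changed by -0.60 and -0.96, no longer 2-fold. The part of GC content in this difference was not tested.

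DUSP23, a small atypical phosphatase that lacks the kinase-binding domain, was at 1.31 TPM in shCON, against 4.17 with shUSP16#1 and 6.21 with shUSP16#2. Both hairpin libraries were above shCON, 3.18 and 4.74 times its level, and the changes were 1.16 and 1.64. It was the only gene of the 10 at least 2-fold higher, where 2.82% of tested genes were so under shUSP16#1 and 2.78% under shUSP16#2, and since the gene was chosen for being higher, nothing is read from that count. Its gene model is the shortest of the group (797 bases) and its GC content is 63.5%. The tested genes of like GC content had medians of 0.24 and 0.23, and with the GC trend removed the changes were 0.74 and 1.04. DUSP2, an inducible nuclear phosphatase best known from lymphocytes, was at 2.07 TPM in shCON, against 2.67 with shUSP16#1 and 2.40 with shUSP16#2. These changes of 0.26 and 0.15 were close to the medians of genes of like GC content, 0.21 and 0.15, and became -0.13 and -0.38 with the GC trend removed and the overall median kept. The transcript GC content of DUSP2 was 63.9%, against 63.5% for DUSP23. The part of GC content in the changes of these genes was not tested. DUSP23 relative to DUSP2 was 0.633 in shCON, and with the hairpins 1.56 and 2.59.

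The promoter windows of DUSP2 (chr2:96145391-96145690, minus strand) and DUSP23 (chr1:159780712-159781011, plus strand) are shown since both genes stand in lists of Myc-regulated genes, and Myc binds the E box as a dimer with MAX. The E box is in capitals, and CACGTG reads the same on both strands. Its first base is at position -113 from the start in DUSP2 and 4 in DUSP23. E boxes were found in 3 of the 8 genes with a window (DUSP1, DUSP2 and DUSP23) and in 7.26% of all 35116 windows, TGACGTCA in 1 (DUSP1) and in 1.85% of windows, and CCGGAA in 1 (SPRY2) and in 17.2%. TGANTCA and the CArG box, which 7.71% and 1.29% of all windows hold, were in none of the 8. These counts are per gene, with SPRY2 having 3 windows and DUSP10 2, while the shares are per window, so they differ in unit. The 3 genes with an E box had changes of 0.15 (DUSP1), 0.26 (DUSP2) and 1.16 (DUSP23) under shUSP16#1, and 0.03, 0.15 and 1.64 under shUSP16#2. With the GC trend removed and the overall median kept, DUSP1 and DUSP2 were below 0 under both hairpins. DUSP2 and DUSP23 were chosen from Myc lists for being higher, so nothing is read from the E box count or from these changes. A link between the E box and the changes was not tested. A match is a description of letters and not of binding.
DUSP2: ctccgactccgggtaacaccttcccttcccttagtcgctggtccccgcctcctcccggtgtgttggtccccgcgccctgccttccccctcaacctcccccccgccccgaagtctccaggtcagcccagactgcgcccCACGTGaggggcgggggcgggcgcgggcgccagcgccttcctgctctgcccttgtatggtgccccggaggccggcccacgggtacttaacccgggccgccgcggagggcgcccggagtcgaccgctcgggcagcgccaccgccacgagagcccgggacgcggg
DUSP23: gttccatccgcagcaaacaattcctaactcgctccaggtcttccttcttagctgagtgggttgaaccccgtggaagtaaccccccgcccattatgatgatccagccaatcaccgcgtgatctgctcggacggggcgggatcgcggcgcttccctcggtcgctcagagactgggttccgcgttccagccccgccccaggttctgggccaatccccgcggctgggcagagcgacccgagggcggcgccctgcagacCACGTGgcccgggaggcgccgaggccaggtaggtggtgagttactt

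**Figure D2:**
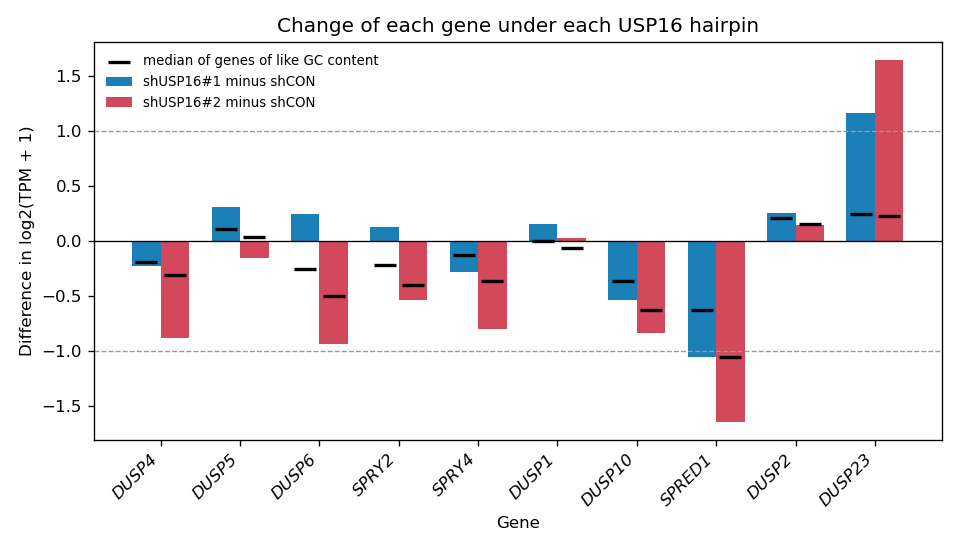
Difference in log2(TPM + 1) from shCON for each gene under shUSP16#1 (blue bars) and shUSP16#2 (red bars), with black ticks at the median change of tested genes of like GC content and dashed lines at 2-fold. SPRED1 lies below and DUSP23 above the lines in both comparisons, and DUSP5, DUSP6 and SPRY2 are above 0 under shUSP16#1 and below 0 under shUSP16#2.

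The median over all 10 genes was 0.14 for shUSP16#1, with 4 genes below 0 (61.7% of tested genes were), and -0.66 for shUSP16#2, with 3 genes above 0 (29.5% of tested genes were). After centring, these medians became 0.31 and -0.30. The medians and counts include DUSP2 and DUSP23, chosen for being higher and above 0 under both hairpins, so nothing about the group is read from them. Under shUSP16#2, DUSP1 (0.03) was the only other gene above 0. The medians without these 2 genes were 0.13 and -0.80 over DUSP4, DUSP5, DUSP6, SPRY2 and SPRY4. Over DUSP1, DUSP10 and SPRED1 they were -0.53 and -0.84. Centring moved the background of 2-fold changes. Under shUSP16#1 it changed from 785 lower and 384 higher genes to 434 (3.18%) and 604 (4.43%), and under shUSP16#2 from 2653 and 379 to 1054 (7.73%) and 878 (6.44%). Of the 10 genes, DUSP23 was then 2-fold higher under both hairpins and SPRED1 2-fold lower under shUSP16#2.

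The direct comparison of the hairpin libraries does not involve shCON. Under shUSP16#2, in which USP16 was lower, 9 of the 10 genes were below their shUSP16#1 level, with a median difference of -0.49 in log2(TPM + 1). The background was similar in direction, since 73.5% of tested genes were below and their median difference was -0.21. DUSP6 differed most, by -1.18, at percentile 2.11 of all tested genes, and was the only gene at least 2-fold lower, as were 3.57% of tested genes. DUSP4, SPRY2 and SPRED1 differed by -0.65, -0.66 and -0.59. DUSP1 and DUSP2 differed least, by -0.13 and -0.11, and DUSP23 alone was higher, by 0.48. At least 2-fold higher were 0 of the 10 genes and 1.6% of tested genes.

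The changes of all tested genes followed the GC content of their transcripts, Spearman's rho over 13290 genes being 0.53 for shUSP16#1 and 0.63 for shUSP16#2. Genes are not independent replicates, and the values of a comparison share their libraries. The 10 genes spread over this range, from SPRED1 (38.9% GC, percentile 10.5 of tested genes) to DUSP2 (63.9%, percentile 94.5). Relative to genes of like GC content, DUSP6 differed by 0.50 under shUSP16#1 and -0.43 under shUSP16#2. DUSP4 and SPRY4 differed by -0.04 and -0.16 under shUSP16#1 and by -0.57 and -0.44 under shUSP16#2. The part of GC content in these changes was not tested.

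**Figure D3:**
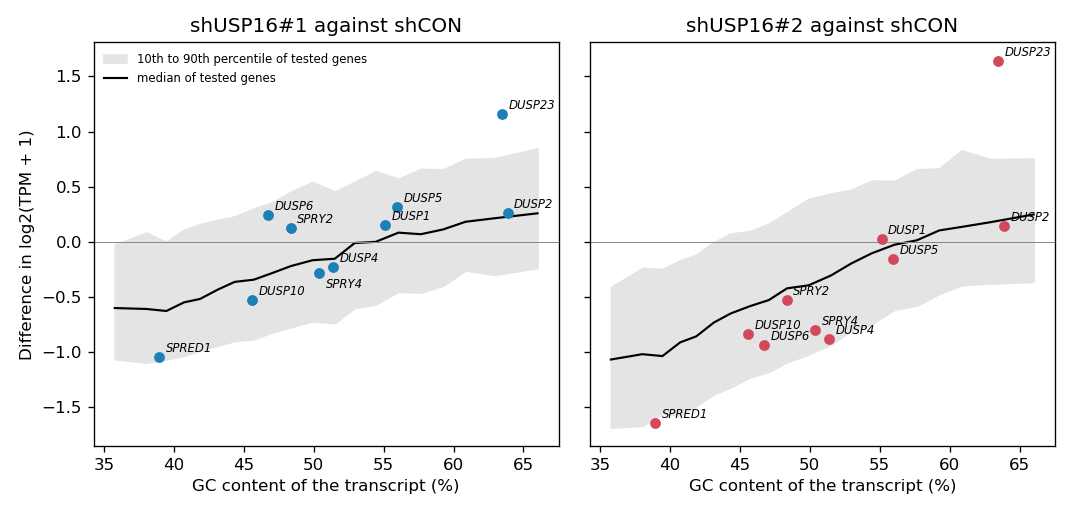
Difference in log2(TPM + 1) from shCON against the GC content of the transcript (%), with the 10 genes as points, the median of tested genes as a line and their 10th to 90th percentile in grey, in 20 bins. DUSP23 lies above the grey band in both panels, DUSP1 and DUSP2 follow the line, and DUSP6 lies above the line under shUSP16#1 and below it under shUSP16#2.

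The deposited annotation gives protein domains that the choice of genes did not use. A dual-specificity catalytic domain (DSPc) together with a rhodanese-like domain, the fold of the kinase-binding part of the MAP kinase phosphatases, was found in 11 gene names. These are DUSP1, DUSP2, DUSP4, DUSP5, DUSP6, DUSP10, the pseudophosphatase STYXL1 and the other MAP kinase phosphatases DUSP7, DUSP8, DUSP9 and DUSP16. DUSP23 has the catalytic domain without the rhodanese-like domain, like 55 other genes. SPRY2, SPRY4 and SPRED1 are 3 of the 7 genes with a Sprouty domain, and SPRED1 also has a WH1 domain, as do SPRED2 and SPRED3. Of the 10 genes, 7 were annotated to negative regulation of the ERK cascade. The exceptions were DUSP2, DUSP5 and DUSP23, and DUSP23 had none of the ERK or MAPK annotations examined. SPRY2 was annotated to positive regulation of that cascade as well. Among the other 100 genes annotated to negative regulation of the ERK cascade, 49 were tested. Their median changes were -0.09 and -0.17, where all tested genes gave -0.17 and -0.37. Of these 49, 1 was at least 2-fold lower and 1 at least 2-fold higher under shUSP16#1, and 6 and 0 under shUSP16#2. The shares of all tested genes were 5.76% lower and 2.82% higher under shUSP16#1, and 19.5% and 2.78% under shUSP16#2.

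None of the 4 other MAP kinase phosphatases was 2-fold changed. Of all tested genes, 5.76% were at least 2-fold lower and 2.82% higher under shUSP16#1, and 19.5% and 2.78% under shUSP16#2. DUSP8, which acts on JNK and p38, was at 3.86, 7.34 and 7.49 TPM in shCON, shUSP16#1 and shUSP16#2. DUSP7, a cytoplasmic ERK phosphatase like DUSP6, was at 26.4, 17.7 and 19.6 TPM. DUSP9 was at 6.50, 4.42 and 9.80 TPM, and thus on opposite sides of shCON in the hairpin libraries. With the GC trend removed and the overall median kept, its changes were -0.88 and -0.06. The medians of all tested genes on that scale were -0.18 and -0.37. Relative to genes of like GC content, DUSP9 was thus lower under shUSP16#1 and higher under shUSP16#2. Of 15 atypical phosphatases 9 were tested, with median changes of -0.47 and -0.54. DUSP12 (63.5, 45.6 and 25.0 TPM) and STYX (16.6, 8.63 and 7.21 TPM) were at least 2-fold lower under shUSP16#2, 2 of 9 against 19.5% of tested genes. With the GC trend removed their changes under shUSP16#2 were -1.16 and -0.40. In the Sprouty and Spred families SPRY1 was at 6.26, 7.80 and 5.73 TPM and SPRED2 at 14, 8.75 and 7.95 TPM, so SPRY1, like SPRY2, was above shCON with shUSP16#1 and below it with shUSP16#2, and SPRED2, like SPRED1, was below shCON with both. Centred on the tested genes' median, the changes of SPRY1 were 0.45 and 0.26, so its side under shUSP16#2 depends on centring. SPRY3 and SPRED3 were under the minimum.

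The list of 22 other genes that ERK signalling induces had 15 tested genes, with median changes of -0.05 under shUSP16#1 and -0.20 under shUSP16#2. Centred, these medians were 0.12 and 0.17, and with the GC trend removed -0.28 and -0.68, so their direction depends on the scaling. The ETS factors ETV4 (86.2, 98.9 and 87.1 TPM) and ETV5 (35.8, 42.9 and 34.2 TPM), common readouts of ERK activity, had changes from -0.06 to 0.26. FOSL1, a subunit of AP-1, was at 277, 216 and 248 TPM. PHLDA1 was at 55.8, 53.8 and 42.8 TPM, and CCND1, which encodes cyclin D1, at 163, 119 and 90.3 TPM. None of the 15 was 2-fold changed under shUSP16#1. Under shUSP16#2 the survival gene MCL1 (75.3, 48.1 and 20.8 TPM) and the transcription factor KLF6 (40.8, 21.8 and 15.8 TPM) were at least 2-fold lower, 2 of 15 against a background of 19.5%. Changes under shUSP16#2 ran from -1.81 (MCL1) to 0.35 (JUNB) in this list and from -0.93 (DUSP6) to -0.15 (DUSP5) over DUSP4, DUSP5, DUSP6, SPRY2 and SPRY4, so the ranges overlapped. The medians were -0.20 and -0.80, and with the GC trend removed -0.68 and -0.80. The difference between the groups was not tested.

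MAPK3, which encodes ERK1, a substrate of these phosphatases, was at 24.4 TPM in shCON, against 37.2 with shUSP16#1 and 37.9 with shUSP16#2. Both hairpin libraries were above shCON, by 0.59 and 0.62 in log2(TPM + 1). The GC content of its transcript is 61.4%, and with the GC trend removed the changes were 0.24 and 0.13.

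In the list of 27 genes of the ERK cascade, 25 were tested, and 1 was at least 2-fold lower under shUSP16#1 and 11 under shUSP16#2, against backgrounds of 5.76% and 19.5%. PTPN11, which encodes the phosphatase SHP2 that relays receptor signals to RAS, was at 62.0, 28.6 and 8.62 TPM. RPS6KA3, a kinase activated by ERK, was at 20.7, 9.99 and 7.06 TPM, and the RAS inhibitors RASA1 (13.8, 7.41 and 4.64 TPM) and NF1 (5.78, 3.02 and 1.82 TPM) were also lower. NF1 encodes neurofibromin, the partner of SPRED1. The median GC content of this list was 47.3%, and with the GC trend removed its median change under shUSP16#2 was -0.53 instead of -0.89.

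Among 15 tested receptors and ligands, 2 were at least 2-fold lower under shUSP16#1 and 6 under shUSP16#2, where 5.76% and 19.5% of tested genes were. The growth factor FGF2 (13.7, 3.67 and 3.41 TPM), the EGF receptor ligand HBEGF (95.6, 73.3 and 36.2 TPM), the receptor inhibitor LRIG1 (5.49, 2.31 and 1.73 TPM) and the receptor MET (35.1, 15.8 and 14.2 TPM) led them. ERBB2, a receptor of the EGF receptor family, was at 12.4, 24.8 and 26.9 TPM and was at least 2-fold higher under shUSP16#2, as were 2.78% of tested genes. With the GC trend removed the changes under shUSP16#2 were -1.09 (FGF2), -1.41 (HBEGF), -1.56 (LRIG1), -0.87 (MET) and 0.70 (ERBB2). MET and ERBB2 were then no longer 2-fold changed. In the JNK and p38 list 12 genes were tested, of which 1 and 4 were at least 2-fold lower, against 5.76% and 19.5% of tested genes. The upstream kinase MAP2K4 was at 10.1, 5.66 and 2.33 TPM. MAPK8 (24.4, 10.4 and 7.02 TPM), MAPK9 (19.3, 10.1 and 6.80 TPM) and MAPK14 (21.9, 19.1 and 7.98 TPM) encode JNK and p38 kinases, on which DUSP1 and DUSP10 act. The GC-removed changes under shUSP16#2 were -1.28 (MAP2K4), -1.01 (MAPK8), -1.02 (MAPK9) and -1.22 (MAPK14). Of the 5 tested genes for PP2A subunits and tyrosine phosphatases of ERK, PPP2CA (132, 73.7 and 58.7 TPM) and PPP2R1B (24.3, 14.7 and 11.5 TPM) were at least 2-fold lower under shUSP16#2, 2 of 5 against 19.5% of tested genes. With the GC trend removed PPP2CA and PPP2R1B changed by -0.58 and -0.64 under shUSP16#2, no longer 2-fold.

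**Figure D4:**
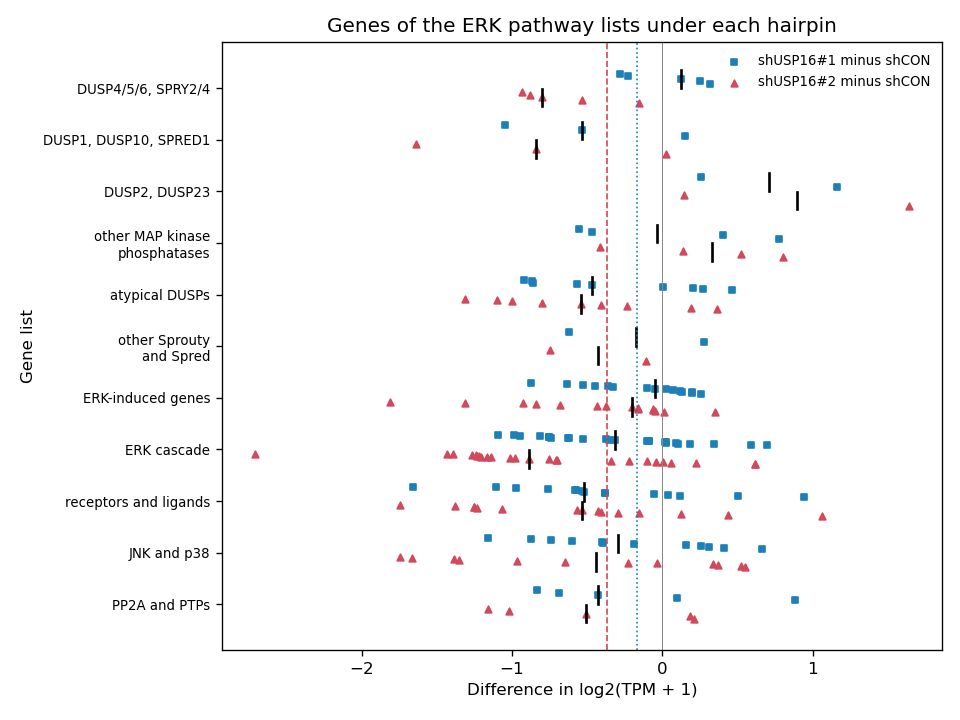
Difference in log2(TPM + 1) from shCON for the tested genes of each list under shUSP16#1 (blue squares) and shUSP16#2 (red triangles), with black bars at list medians and vertical lines at the medians of all tested genes (-0.17, dotted, and -0.37, dashed). The medians of DUSP4, DUSP5, DUSP6, SPRY2 and SPRY4 lie on opposite sides of 0 (0.13 and -0.80), and those of the ERK-induced genes are -0.05 and -0.20, which centring turns to 0.12 and 0.17.

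Likeness of pattern was measured as the Euclidean distance between the pairs of changes, over 96 other genes of these lists and the 3 libraries, which share shCON. DUSP6 was nearest to MAP2K1, which encodes MEK1 (changes of 0.03 and -0.89, distance 0.227), and to the scaffold gene KSR1 (0.35 and -0.71, distance 0.245). SPRY4 was nearest to LAMTOR3 (distance 0.0973) and DUSP4 (0.0988). DUSP2 was nearest to DUSP16 and ETV4 (distance 0.147 for both). For DUSP23 the nearest were ERBB2 at 0.623 and DUSP8 at 0.921. DUSP2 and DUSP23 were chosen for the changes that these distances use, so nothing is read from their distances.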

How the data were processed

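RNA-seq of PC3 cells was performed by Majorbio, and the values the authors deposited are TPM, rounded to 2 decimals, in 60930 rows and 1 column per library. The submitters' processing notes name CASAVA, HISAT2 and hg19. The quantification tool and annotation are not given in the sources used here. Columns repeated under the same names (3) were left out. Of rows that repeat a gene name (1211), the first was kept. Genes were tested where the mean level reached 1 TPM, and the changes are log2(TPM + 1) of a hairpin minus shCON, with 2-fold meaning at least 1 on that scale. Depth cannot be recovered from TPM. GC content, gene type and the longest transcript came from GENCODE release 29, and 58516 identifiers matched it. GC content was known for 97.5% of tested genes. To remove the trend, tested genes were ranked into 50 bins by GC content, and each change was set relative to its bin median, shifted by the overall median. Promoter windows came from RefSeq (GRCh38.p14), and 8 of the 10 genes had 1 or more. DUSP4 and DUSP5 had none. Hairpin sequences were read from the study's supplement.

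The 10 genes, the lists and the rule for named genes were chosen with earlier results of these data known. The rule took the 10 genes, USP16, MAPK3, FOSL1, ETV4, ETV5, PHLDA1, CCND1 and EGR1, from each list up to 4 genes per direction past 2-fold under either hairpin, and the 2 nearest patterns of DUSP6, SPRY4, DUSP2 and DUSP23. MKI67, a marker of cycling cells, was also named by the rule (29.6, 12.1 and 8.78 TPM in shCON, shUSP16#1 and shUSP16#2). Some genes under the rule are not reported here. Other genes were named after their values were seen, as were the sets from the deposited annotation, the motifs and the hairpin sites. The alternatives were a pseudocount of 0.1, centring, no minimum, a minimum of 5 TPM, TPM rescaled over protein-coding genes, removal of the GC trend and summing of repeated names. The procedures were tested on simulated data. Computation was in Python 3.11.15 with pandas 2.3.3 and numpy 2.4.6, and plots used matplotlib 3.10.9.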

Additional observations from a re-analysis of the deposited data

Results flagged for a closer look

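DUSP5, DUSP6 and SPRY2 stood on opposite sides of shCON in the hairpin libraries. DUSP6 changed by 0.25 under shUSP16#1 and -0.93 under shUSP16#2, SPRY2 by 0.13 and -0.53, and DUSP5 by 0.31 and -0.15 on the log2(TPM + 1) scale. Each rests on 1 library per hairpin, and the difference between the hairpins was not tested. After centring DUSP5 was above 0 under both hairpins, 0.49 and 0.21, whereas DUSP6 (0.42 and -0.56) and SPRY2 (0.30 and -0.16) kept opposite signs.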

How the results depend on the processing

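No paired analysis was possible because there was a lone library for each hairpin and for the control. A value counted as moved when it shifted by more than 1.5-fold. The median changes of the 10 genes and of the ERK-induced genes moved by less than that under all 7 alternatives, but the median of the 10 genes under shUSP16#1 turned from 0.14 to -0.08 with the GC trend removed, and centring turned the ERK-induced medians from -0.05 to 0.12 and from -0.20 to 0.17. Without a minimum the ERK-induced median under shUSP16#1 was 0.06. The count of genes at least 2-fold lower, 1 under each hairpin (SPRED1), became 4 under shUSP16#2 with a pseudocount of 0.1 (with DUSP6, DUSP10 and SPRY4), 0 under shUSP16#1 with centring and 0 under both with the GC trend removed. The count at least 2-fold higher, 1 under each (DUSP23), became 0 under shUSP16#1 with the GC trend removed. A minimum of 5 TPM, which by construction leaves 5 of the 10 genes, gave 0 for all of these counts. Of the 20 single changes, 4 changed sign with the GC trend removed and the overall median kept (DUSP1 and DUSP2 under both hairpins) and 1 with centring (DUSP5 under shUSP16#2). The depth behind the TPM values is unknown, so the counting error of low genes could not be given.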

Other observations

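Immediate-early genes of the ERK pathway differed widely in level in these libraries. IER3 was at 722, 791 and 699 TPM in shCON, shUSP16#1 and shUSP16#2, IER2 at 135, 142 and 129 TPM, JUNB at 94.7, 109 and 121 TPM and JUN at 33.5, 34.1 and 24.5 TPM. EGR1 was at 0.21 TPM in shCON, against 0.50 with shUSP16#1 and 0.39 with shUSP16#2, FOS at 0.75, 0.95 and 0.75 TPM, and FOSB at 0.71, 1.18 and 0.41 TPM, these 3 genes being under the minimum. ERRFI1, a feedback inhibitor of the EGF receptor that is not among the 10 genes, was at 66.5, 94.7 and 90.5 TPM, changes of 0.50 and 0.44, or 0.76 and 0.80 with the GC trend removed. PTPRR, a tyrosine phosphatase of ERK, was at 5.78, 11.5 and 6.70 TPM. Apart from EGR1, these genes were chosen after their values were seen, and none of these differences was tested.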
